A study of Mus musculus with 6 samples.

Results

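The export of cholesterol from brain cells, its carriage on lipoproteins and its turnover were followed through 10 genes across the cell classes of the mouse forebrain: Apoe, Clu, Abca1, Abcg1, Abcg4, Lrp1, Cyp46a1, Cyp27a1, Soat1 and Lcat. They were chosen by symbol from the 32285 genes of the count matrix. The mice were 16 days old and untreated, and forebrain nuclei were taken from 3 that were WT and 3 that were Npc1-/-. Per the study's methods, the Npc1-/- mice were F1 hybrids of BALB/cJ and C57BL6/J parents that each carried the Npc1 mutation in heterozygous form. The study describes the sequenced WT and Npc1-/- mice as littermates. NPC1 is the lysosomal protein that releases cholesterol taken up in lipoproteins, and its loss in these mice was not limited to a cell type. Single-nucleus RNA sequencing (snRNA-seq) counts the transcripts of each nucleus captured in a droplet by their unique molecular identifiers (UMIs). The 6 libraries came as 1 matrix and are named library 1 to library 6 by the suffix of their barcodes. No source used here ties a suffix to a mouse, so WT and Npc1-/- were not compared, and the values below describe where in the forebrain each gene was counted and how far the 6 libraries differed.

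Cholesterol of the brain is a pool of its own, kept apart from that of the plasma. Astrocytes are known as the main source of the particles that carry it between cells: ABCA1 and its relatives ABCG1 and ABCG4 pass cholesterol to apolipoproteins such as ApoE and clusterin, LCAT esterifies it on the particle, and endocytic receptors, LRP1 among them, take the particle up. A cell with a surplus can store cholesterol as ester through SOAT1, or hydroxylate it to an oxysterol through CYP46A1, known as a neuronal enzyme, or CYP27A1, a mitochondrial one. Oxysterols cross membranes and activate the liver X receptors (LXR), nuclear receptors that raise transcription of Abca1, Abcg1 and Apoe.

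Each nucleus was placed in 1 of 16 classes by fixed lists of marker genes that hold none of the 10 genes. A class is called by its markers and the ending -like. A class takes in the nuclei whose markers score clearly above those of any other class, and 3345 nuclei lay close to that limit. The gate named 42625 of 75867 nuclei, and 127 of the 128 markers were at least 2-fold higher in their own class than in the other gated nuclei. The same markers had placed the nuclei, so this excess follows from the gate and adds no support to the classes. Nuclei without a class held from 18.3% (Cyp27a1) to 48.3% (Abcg4) of the UMIs of a member, with 44.2% for Cyp46a1 and 39.0% for Apoe. The class levels below leave these UMIs out. The named nuclei were 6617 excitatory neuron-like, 1999 subcortical excitatory neuron-like, 5164 striatal projection neuron-like, 3296 inhibitory interneuron-like, 957 neuroblast-like, 5811 astrocyte-like, 3839 OPC-like (oligodendrocyte progenitor), 2062 immature oligodendrocyte-like, 2613 mature oligodendrocyte-like, 2635 microglia-like, 308 border-associated macrophage-like, 3595 endothelial-like, 1169 pericyte and smooth muscle-like, 1340 fibroblast-like, 755 ependymal-like and 465 choroid plexus-like. Libraries held 8217 to 16118 barcodes and 51343653 to 107583300 UMIs, and the median nucleus of a class held from 2628 UMIs in the microglia-like class to 9005 in the excitatory neuron-like class. Over all nuclei of a library, Apoe was counted at 339 to 647 UMIs in 1000000 (CPM), Clu at 54.3 to 103, Abca1 at 43.7 to 64.1, Lrp1 at 77.4 to 112, Soat1 at 24.7 to 28.6 and Abcg1 at 26.5 to 29.9. Cyp46a1 lay at 25.2 to 36.2 CPM, Abcg4 at 11.3 to 15.9, Lcat at 2.90 to 5.34 and Cyp27a1 at 2.85 to 4.98. Npc1, the gene mutated in the Npc1-/- mice, was counted in every library, at 25.5 to 32.2 CPM, so its transcript was not absent from those of the Npc1-/- mice.

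On build GRCm38, with the gene models of GENCODE M21, all 10 are protein-coding genes. Apoe lies at chr7:19696109-19699188 on the minus strand, Clu at chr14:65968483-65981547 on the plus strand, Abca1 at chr4:53030787-53159895 on the minus strand, Abcg1 at chr17:31057675-31117988 on the plus strand and Abcg4 at chr9:44273188-44288615 on the minus strand. Lrp1 lies at chr10:127538161-127621148 on the minus strand, Cyp46a1 at chr12:108334381-108362234 on the plus strand, Cyp27a1 at chr1:74713574-74737892 on the plus strand, Soat1 at chr1:156424525-156474331 on the minus strand and Lcat at chr8:105939551-105943382 on the minus strand. Another gene model overlaps Abcg1 on its own strand (Gm25447), and models on the other strand overlap Lrp1 (Gm16217), Soat1 (Gm37648) and Lcat (Gm16156). Reads shared by the same-strand pair could belong to either.

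RefSeq gives a window around the transcription start for 7 of the 10 genes (Clu, Abcg1 and Abcg4 have none here), and 2 are printed, chosen after the values were seen, because their genes had opposite patterns, with Abca1 low in neurons and Cyp46a1 high in them. Both are the 250 bases before the start, on the strand of the gene, in build GRCm38.p6. The first lies at chr4:53159896-53160145 on the minus strand, and its capitals mark the closest match, read on the other strand, to 2 copies of AGGTCA in the same direction with 4 bases between them, the arrangement that LXR binds. The second lies at chr12:108334066-108334315 on the plus strand, and its capitals mark GC boxes (GGGCGG on either strand).
Abca1: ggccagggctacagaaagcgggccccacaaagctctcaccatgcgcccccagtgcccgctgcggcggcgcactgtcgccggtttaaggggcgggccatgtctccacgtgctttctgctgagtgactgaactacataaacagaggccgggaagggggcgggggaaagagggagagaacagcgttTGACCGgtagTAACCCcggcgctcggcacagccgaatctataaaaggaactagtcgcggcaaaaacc
Cyp46a1: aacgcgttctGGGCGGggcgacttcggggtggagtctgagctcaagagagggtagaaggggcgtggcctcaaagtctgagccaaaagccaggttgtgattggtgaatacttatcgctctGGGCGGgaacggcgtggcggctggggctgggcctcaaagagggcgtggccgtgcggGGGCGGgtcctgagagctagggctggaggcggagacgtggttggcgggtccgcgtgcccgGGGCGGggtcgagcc
The Abca1 match began 67 bases before the start and had 3 mismatches in its 12 fixed letters, a closeness that 18.5% of 32851 mouse windows reached on one strand or the other, that of Cyp46a1 among them. The Cyp46a1 window held 4 GC boxes and had a GC content of 67.6%, beside a median of 52.4% over all windows. That of Abca1 held 2 GC boxes, not marked by capitals, and had a GC content of 61.6%. At least 1 GC box was found in 32.7% of windows and 4 or more in 4.09%, and no match is read here as a site of binding.

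Transcripts known from a single cell type were counted in nuclei of every class, and this set how the 10 genes could be read. Ttr, which the brain transcribes mainly in the choroid plexus and which is one of that class's own markers, was counted at 32.0 UMIs per choroid plexus-like nucleus and 3.40 per ependymal-like nucleus. In the other 14 classes it lay between 1.76 and 2.43 UMIs per nucleus, although their median depth differed more than 3-fold. In CPM the same gene ran from 174 in excitatory neuron-like nuclei to 479 in microglia-like nuclei, a spread that follows the number of UMIs per nucleus. Hbb-bs, a haemoglobin gene of red cells, lay at 0.768 to 0.957 UMIs per nucleus in the 9 neuronal, neuroblast, oligodendrocyte lineage and microglia classes, but reached 1.96 in the others. Mbp, a myelin gene, ran from 2.17 UMIs per microglia-like nucleus to 8.66 per ependymal-like nucleus outside the oligodendrocyte classes. Free RNA was not estimated from empty droplets. Levels are therefore given as UMIs per nucleus and as CPM, and the ratio to Ttr is given beside them. Where classes share a ratio, free RNA and transcripts of the nuclei cannot be told apart here, and no expression is read from the level. The level of Ttr differed between libraries, and it lay in excitatory neuron-like nuclei at 0.926 UMIs per nucleus in library 6, a median of 1.81 and 2.22 in library 3. Intervals (95%) and ranges over libraries are given beside the values, and the intervals cover counting error only.

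**Figure D1:**
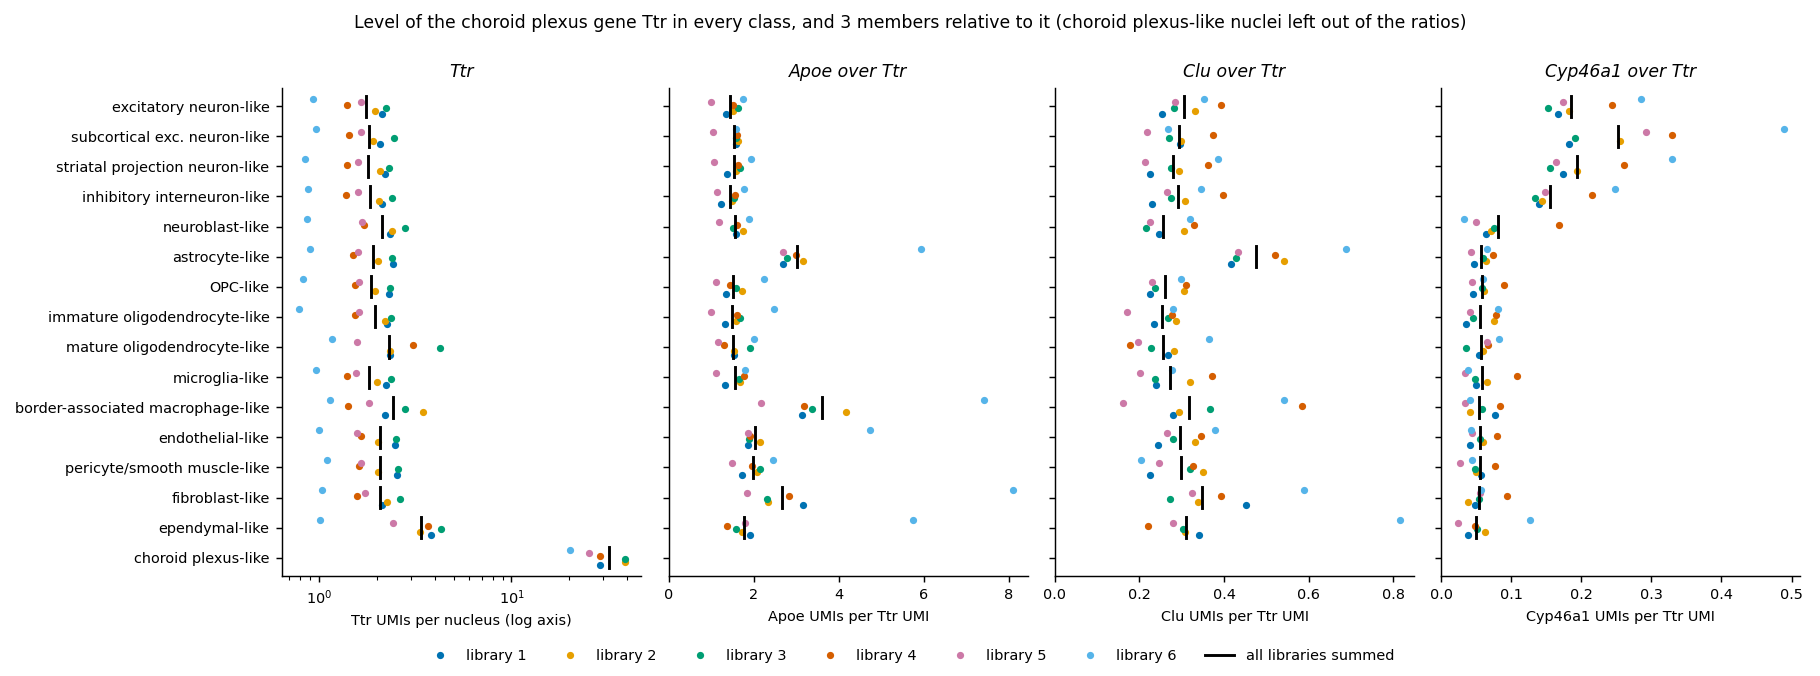
The left panel plots Ttr UMIs per nucleus on a log axis for 16 classes, and the other panels plot UMIs of Apoe, Clu and Cyp46a1 per Ttr UMI. Points are the 6 libraries and black bars the sum of all libraries. Ttr lies near 2 UMIs per nucleus outside the choroid plexus-like and ependymal-like classes, Apoe and Clu stand above the common ratio in astrocyte-like nuclei, and Cyp46a1 does so in the 4 neuron classes.

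Apoe, the main apolipoprotein of brain particles, was counted in every class. Border-associated macrophage-like nuclei had the highest level, 8.79 UMIs per nucleus (8.46 to 9.13), followed by ependymal-like (6.03), astrocyte-like (5.74) and fibroblast-like nuclei (5.54). Each of these steps exceeded its counting interval, but the first held in 3 of 6 libraries only. Without the nuclei of highest doublet score, ependymal-like nuclei (5.46) came below astrocyte-like (5.67) and fibroblast-like nuclei (5.51). With all gated nuclei the order in CPM was another one. Astrocyte-like nuclei lay at 1379 (1364 to 1394), border-associated macrophage-like at 1336 (1286 to 1387), fibroblast-like at 1135 and ependymal-like nuclei at 943, the first pair with overlapping intervals. Without the nuclei of highest doublet score, border-associated macrophage-like nuclei (1667) were above astrocyte-like nuclei (1446) in CPM too. In astrocyte-like nuclei the libraries ran from 4.27 to 6.67 UMIs per nucleus with a median of 5.87. Excitatory neuron-like nuclei had the lowest level, 2.54, with libraries from 1.63 to 3.62 and a median of 2.48. The lowest astrocyte-like library thus lay above the highest excitatory neuron-like library. The astrocyte-like level was 2.26-fold that of excitatory neuron-like nuclei per nucleus (2.22 to 2.30) and 5.49-fold in CPM (5.39 to 5.60), and it was higher in 6 of 6 libraries on both scales. Mbp also lay higher in astrocyte-like (5.64 UMIs per nucleus) than in excitatory neuron-like nuclei (2.67), and the part of oligodendrocyte RNA in the astrocyte-like values was not tested.

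With all libraries summed, the ratio of Apoe to Ttr was nearly the same in 9 classes. The 4 neuron classes, neuroblast-like nuclei, the 3 oligodendrocyte lineage classes and microglia-like nuclei all held between 1.44 and 1.56 Apoe UMIs per Ttr UMI. Within single libraries the same classes spread further, in library 6 from 1.58 in subcortical excitatory neuron-like to 2.47 in immature oligodendrocyte-like nuclei and in library 5 from 0.998 in excitatory neuron-like to 1.18 in neuroblast-like nuclei. Astrocyte-like nuclei held 3.02 (2.69 to 5.93 over the libraries), border-associated macrophage-like nuclei 3.62, fibroblast-like nuclei 2.67, endothelial-like nuclei 2.02, pericyte and smooth muscle-like nuclei 1.98 and ependymal-like nuclei 1.77, a value lowered by their raised Ttr (1.36 to 5.73 over the libraries). Hbb-bs was also higher in 4 of these classes, with 1.70 UMIs per endothelial-like, 1.35 per fibroblast-like, 1.29 per pericyte and smooth muscle-like and 1.96 per border-associated macrophage-like nucleus, and its part in their Apoe values was not tested. Mbp per Ttr UMI was raised in all of them, from 2.55 in ependymal-like to 2.97 in astrocyte-like nuclei. In the neuron, neuroblast, OPC-like and microglia-like classes it lay at 1.12 to 1.73. A ratio above the common one thus does not by itself show Apoe transcripts of these nuclei, and the part of foreign RNA was not tested. Microglia-like nuclei show what the choice of scale does. Their Apoe level was 2.99-fold that of excitatory neuron-like nuclei in CPM but 1.12-fold per nucleus (1.09 to 1.15), and their ratio to Ttr was 1.56. Shares of nuclei with an Apoe UMI carry the same limit, with 97.1% of astrocyte-like and 87.6% of excitatory neuron-like nuclei, while Ttr was found in 77.6% of the latter. Nuclei of at least 2000 UMIs were also thinned to 2000 UMIs and the others left out. This kept 5270 of 5811 astrocyte-like and 6472 of 6617 excitatory neuron-like nuclei. The 2 Apoe shares were then 87.8% and 42.7%. Those of Ttr were 59.4% in astrocyte-like and 33.1% in excitatory neuron-like nuclei, so thinning to equal depth did not level free RNA between the classes.

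The border-associated macrophage-like class was small and mixed in its other RNA. Its libraries ran from 3.94 to 14.4 Apoe UMIs per nucleus, with a median of 7.68 and 21 to 85 nuclei each. Its nuclei also held 6.79 UMIs of Mbp and 1.96 of Hbb-bs, beside 2.17 and 0.797 in microglia-like nuclei. Library 2 carried the Hbb-bs value, with 4.25 UMIs per nucleus against 0.735 to 1.37 in the other libraries, and the part of other cells in the Apoe value was not tested. When nuclei were grouped by clusters in place of the gate, the cluster with this name held 628 nuclei, had the phagocyte genes Gpnmb, Atp6v0d2 and Mmp12 among its 10 leading genes, and gave 5.06 Apoe UMIs per nucleus, below the ependymal-like (6.12), astrocyte-like (5.16) and fibroblast-like (5.15) clusters. By these clusters the class was thus not first for Apoe. Against microglia-like nuclei its gated level was 3.10-fold per nucleus (2.96 to 3.24) and 1.78-fold in CPM, higher in 6 of 6 libraries.

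Clu encodes clusterin, another apolipoprotein that astrocytes secrete. Its level was 1.05 UMIs per ependymal-like nucleus (0.978 to 1.13) and 0.905 per astrocyte-like nucleus (0.880 to 0.929), while in CPM astrocyte-like nuclei (217) were above ependymal-like ones (164). In astrocyte-like nuclei the libraries had a lowest value of 0.619, a median of 0.890 and a highest value of 1.10, and in excitatory neuron-like nuclei 0.327, 0.541 and 0.649. The 2 ranges overlapped through library 6, the lowest in both classes, and within each of the 6 libraries the astrocyte-like value was the higher. The Clu excess was 1.68-fold per nucleus (1.61 to 1.75) and 4.09-fold in CPM (3.92 to 4.27). Mbp also lay higher in astrocyte-like nuclei, with 5.64 against 2.67 UMIs per nucleus and 1356 against 263 CPM. Per Ttr UMI it was 2.97 against 1.51, and the part of oligodendrocyte RNA in the astrocyte-like Clu values was not tested. Relative to Ttr and with all libraries summed, astrocyte-like nuclei held 0.476 Clu UMIs and fibroblast-like nuclei 0.347. The 13 remaining classes outside the choroid plexus held 0.252 to 0.316 in the sum, and the range over single libraries is not given for them. The ependymal-like ratio, 0.309 in all, was 0.817 in library 6, where Ttr in that class was lowest, and since Ttr was raised in ependymal-like nuclei it places the class neither in nor above the common range. Choroid plexus-like nuclei, whose own Ttr makes the ratio void, held 0.865 Clu UMIs per nucleus.

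**Figure D2:**
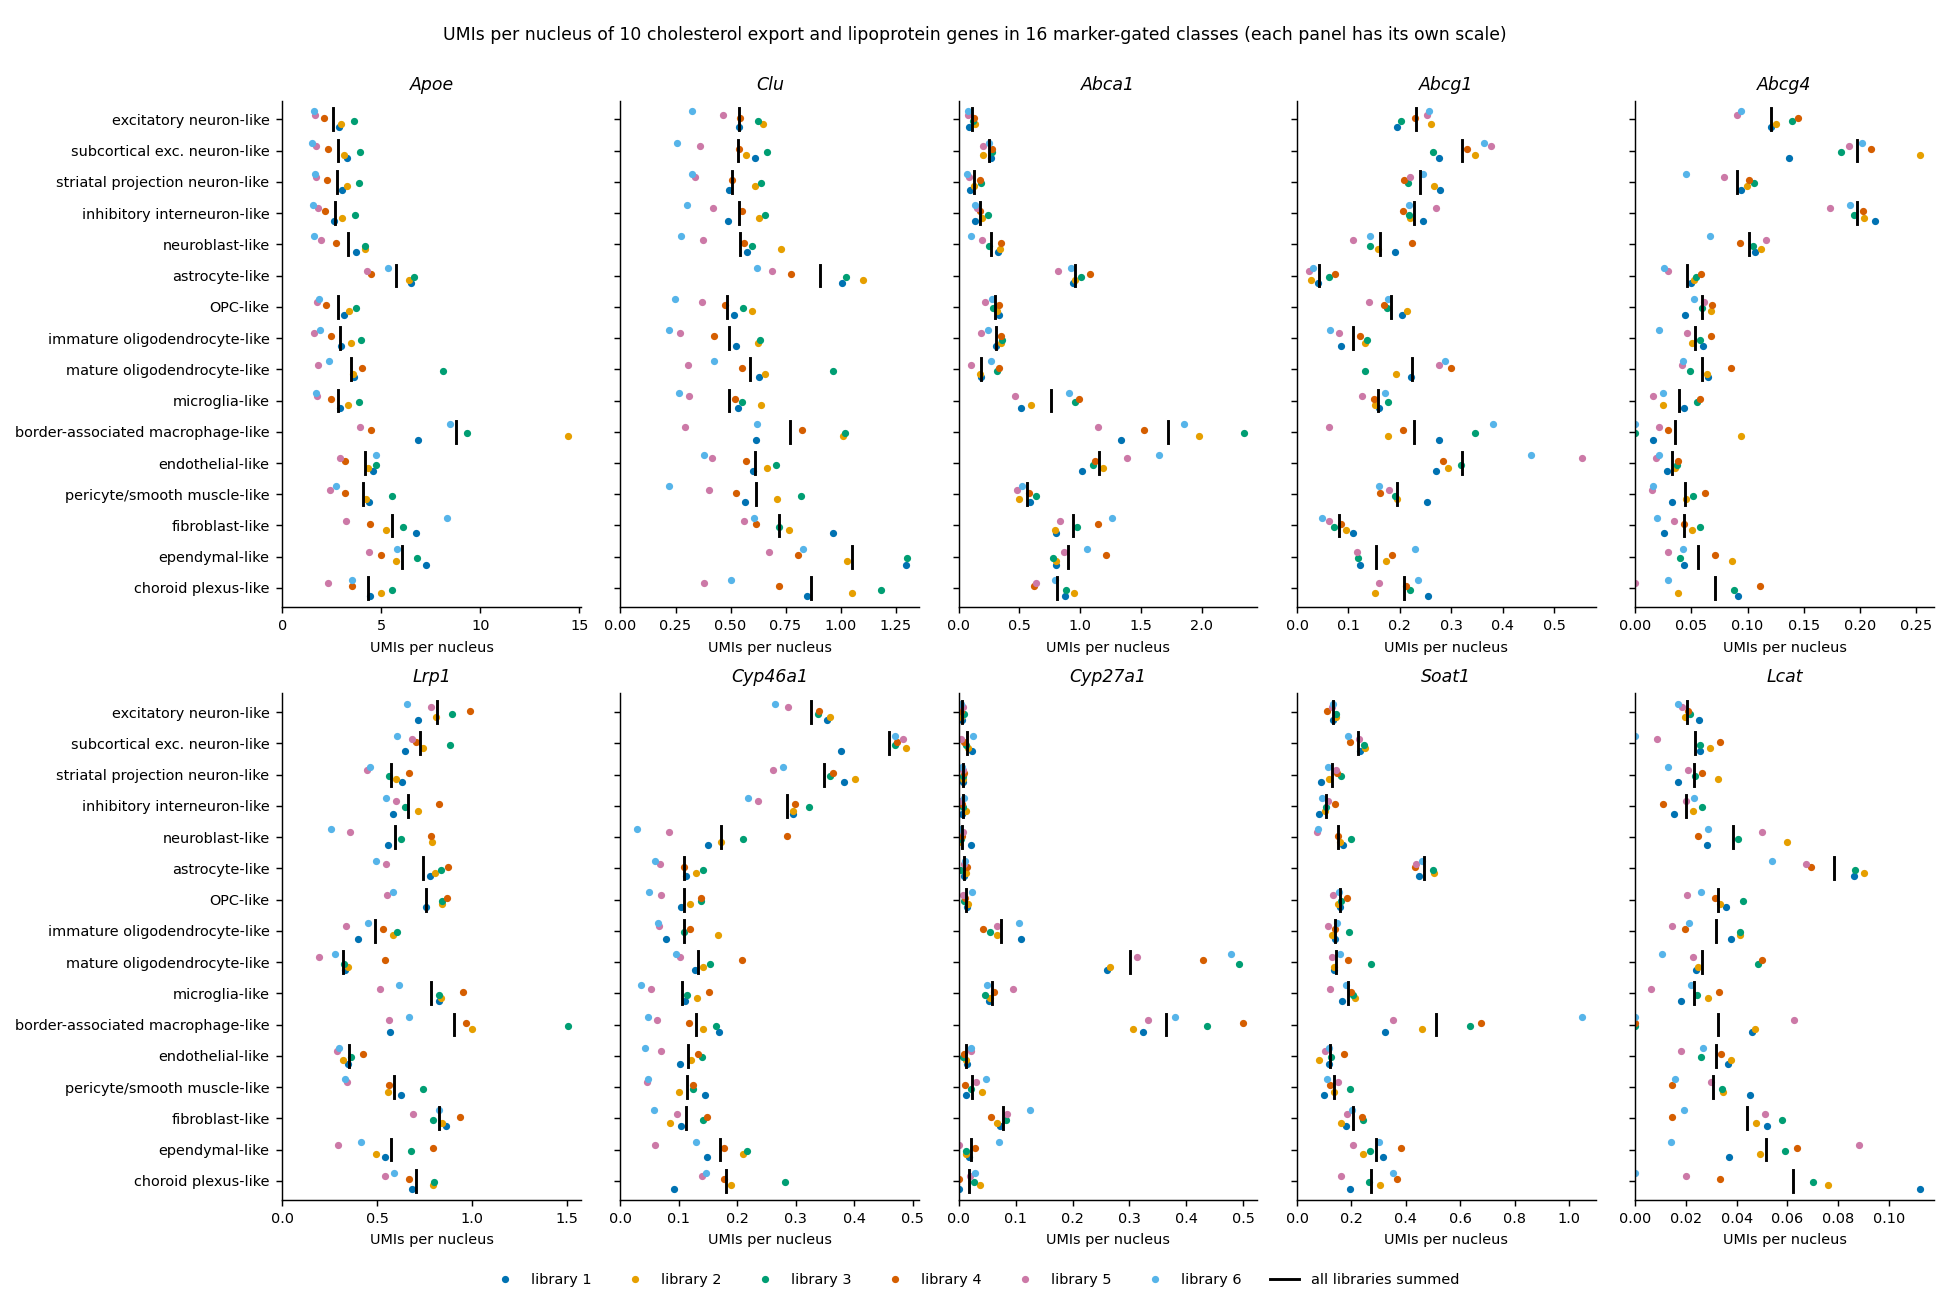
Each panel plots 1 of the 10 genes as UMIs per nucleus (horizontal axis, own scale) for 16 classes of nuclei. Points are the 6 libraries and black bars all libraries summed. Soat1 and Lcat stand high in astrocyte-like nuclei and Cyp46a1 and Abcg4 in neuron classes, Abcg1 is lowest in astrocyte-like nuclei, and Cyp27a1 is highest in the border-associated macrophage-like and mature oligodendrocyte-like classes.

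The 3 exporters follow. Abca1, which loads lipid-poor apolipoproteins, was highest in border-associated macrophage-like nuclei at 1.72 UMIs per nucleus (1.58 to 1.87), then in endothelial-like (1.16), astrocyte-like (0.954), fibroblast-like (0.940), ependymal-like (0.903), choroid plexus-like (0.811) and microglia-like nuclei (0.762). Astrocyte-like, fibroblast-like, ependymal-like, choroid plexus-like and microglia-like nuclei followed each other without a step beyond its counting interval. Excitatory neuron-like nuclei were lowest at 0.105 UMIs per nucleus, with libraries from 0.077 to 0.131 and a median of 0.101. In astrocyte-like nuclei the lowest library had 0.820, the median was 0.949 and the highest had 1.08. The 2 ranges lay far apart, and the astrocyte-like to excitatory neuron-like ratio was 9.09-fold per nucleus (8.40 to 9.85) and 22.1-fold in CPM (20.4 to 24.0). Endothelial-like nuclei stood 11.0-fold above excitatory neuron-like nuclei per nucleus (10.2 to 11.97) and microglia-like nuclei 7.25-fold (6.65 to 7.92), each in 6 of 6 libraries. Unlike Apoe, Abca1 moved far from a common ratio to Ttr, from 0.060 in excitatory neuron-like nuclei to 0.561 in endothelial-like and 0.708 in border-associated macrophage-like nuclei. In clusters in place of the gate, endothelial-like nuclei (0.854) came below fibroblast-like (0.959), ependymal-like (0.946) and astrocyte-like nuclei (0.864), so the order at the top rests on how nuclei were classed. Pericyte and smooth muscle-like nuclei fell to 0.427 times and border-associated macrophage-like nuclei to 0.581 times their gated Abca1 level, the latter to 1.00 UMI per nucleus.

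Abcg1, which adds cholesterol to particles that already hold lipid, was distributed otherwise. Endothelial-like nuclei held 0.322 UMIs per nucleus (0.304 to 0.341) and subcortical excitatory neuron-like nuclei 0.320 (0.296 to 0.346), a pair that did not differ beyond the intervals per nucleus. In CPM the endothelial-like level was 64.6 and the subcortical one 31.2, and by clusters the subcortical level per nucleus was the higher (0.360 against 0.276). The other neuron classes, border-associated macrophage-like and mature oligodendrocyte-like nuclei lay between 0.224 and 0.239. Astrocyte-like nuclei were last at 0.0425 UMIs per nucleus, from 0.023 to 0.073 over the libraries with a median of 0.036, whereas excitatory neuron-like nuclei ran from 0.194 to 0.260 with a median of 0.241. The groups of library values did not overlap, and the excitatory neuron-like level was 5.46-fold the astrocyte-like one per nucleus (4.77 to 6.27) and 2.24-fold in CPM (1.96 to 2.58). Astrocyte-like nuclei were below fibroblast-like nuclei, next in the order at 0.081, in 6 of 6 libraries per nucleus. By clusters they were last as well, at 0.0378.

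Abcg4, a close relative of Abcg1 known from neurons, was highest in inhibitory interneuron-like nuclei (0.198 UMIs per nucleus, 0.183 to 0.213) and subcortical excitatory neuron-like nuclei (0.197, 0.178 to 0.218). The libraries of the first ran from 0.173 to 0.213 with a median of 0.199. Excitatory neuron-like nuclei had 0.121 UMIs per nucleus, striatal projection neuron-like nuclei 0.091, and the 10 non-neuronal classes outside the choroid plexus 0.033 to 0.060. Per Ttr UMI, the 4 neuron classes held 0.050 to 0.108 Abcg4 UMIs and these 10 classes 0.015 to 0.032. The inhibitory interneuron-like level was 4.27-fold the astrocyte-like one (3.70 to 4.94) and 1.64-fold the excitatory neuron-like one (1.47 to 1.82), higher in 6 of 6 libraries in each case. In CPM the excess over astrocyte-like nuclei was 2.14-fold (1.85 to 2.47). Excitatory and striatal projection neuron-like nuclei, at 11.9 and 11.3 CPM, were level with astrocyte-like (11.1) and OPC-like nuclei (12.5) on that scale, their intervals overlapping. Without high doublet scores the border-associated macrophage-like level was 0.0122 UMIs per nucleus. Of its 15 steps from class to class down the order, only that from subcortical excitatory to excitatory neuron-like nuclei exceeded its counting interval, with 11 to 798 UMIs behind each value.

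Lrp1 encodes a large endocytic receptor that takes up ApoE particles. Per nucleus and by the gate it was the most even of the 10 genes after Clu. In CPM Cyp46a1 (2.27-fold from highest to lowest class) was more even than Lrp1 (4.01-fold) and Clu (4.18-fold). By the gate the highest Lrp1 level per nucleus, 0.906 UMIs in border-associated macrophage-like nuclei, was 2.82-fold the lowest, 0.321 in mature oligodendrocyte-like nuclei. Fibroblast-like (0.826), excitatory neuron-like (0.818), microglia-like (0.784), OPC-like (0.761), astrocyte-like (0.740), subcortical excitatory neuron-like (0.725), choroid plexus-like (0.705) and inhibitory interneuron-like nuclei (0.665) followed the first without a step beyond the intervals. In CPM microglia-like nuclei were first at 207 (198 to 216) and astrocyte-like nuclei next at 178. By clusters the order in CPM was border-associated macrophage-like (189), astrocyte-like (176.8) and microglia-like nuclei (176.4). The astrocyte-like to excitatory neuron-like ratio depended on the scale, 2.20-fold in CPM (2.12 to 2.29, higher in 6 of 6 libraries) but 0.905-fold per nucleus (0.869 to 0.942, higher in 1 of 6). Endothelial-like nuclei, at 0.352, lay 2.35-fold below fibroblast-like nuclei (2.17 to 2.55) in 6 of 6 libraries. By clusters Lrp1 ran from 0.256 in endothelial-like to 0.901 in microglia-like nuclei, with border-associated macrophage-like nuclei at 0.694. Without high doublet scores it ran from 0.2005 in mature oligodendrocyte-like to 0.811 in excitatory neuron-like nuclei, with border-associated macrophage-like nuclei at 0.7195. In both settings Apoe was the more even gene, at 2.35 to 6.12 and 2.52 to 7.71 UMIs per nucleus.

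**Figure D3:**
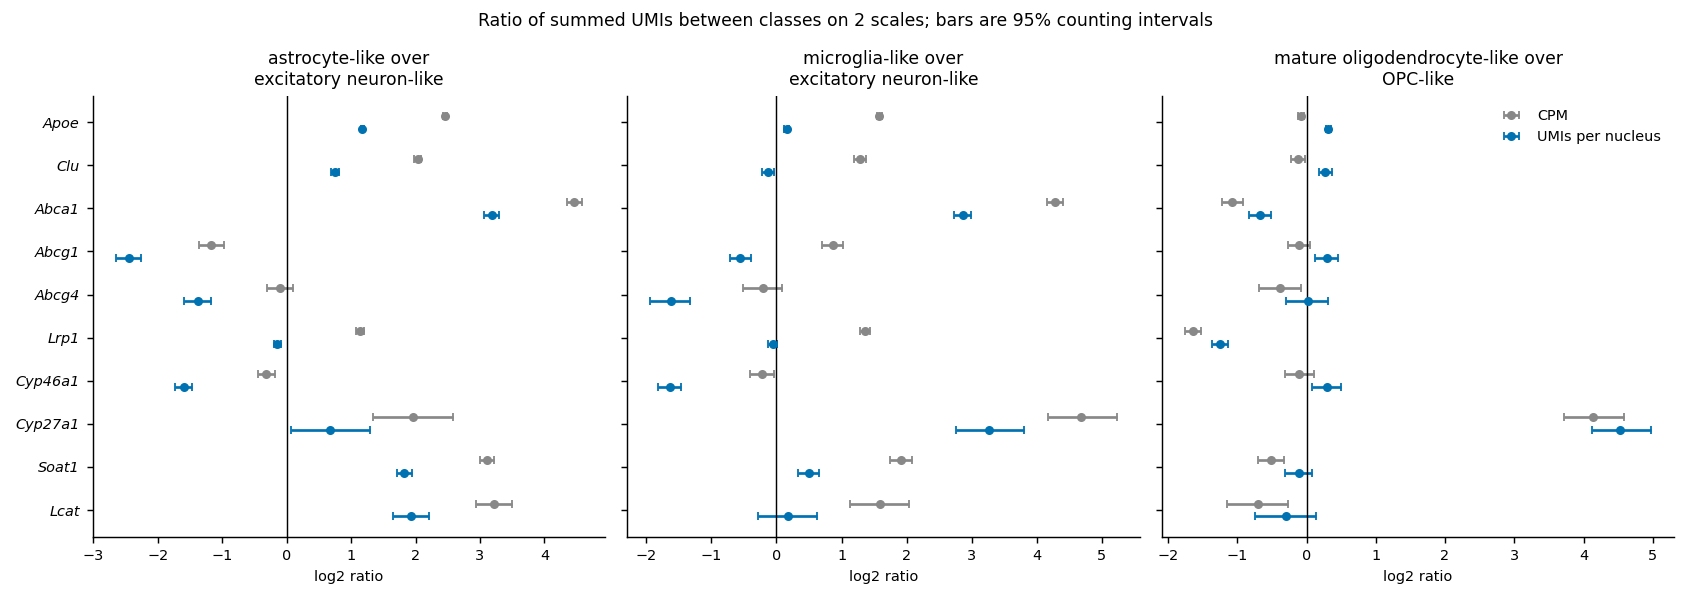
The 3 panels plot the log2 ratio of summed UMIs of each gene between 2 classes, in grey for CPM and in blue for UMIs per nucleus, with 95% counting intervals as bars. Abca1, Soat1 and Lcat lie to the right in the astrocyte-like panel on both scales, Lrp1 changes side there, and Cyp27a1 lies far to the right in the oligodendrocyte panel on both scales.

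The oxysterol enzymes were highest in unlike classes. Cyp46a1, the hydroxylase by which neurons dispose of cholesterol, was highest in subcortical excitatory neuron-like nuclei at 0.459 UMIs per nucleus (0.430 to 0.490), followed by striatal projection neuron-like (0.349), excitatory neuron-like (0.327) and inhibitory interneuron-like nuclei (0.286), each step beyond its interval. In subcortical excitatory neuron-like nuclei the libraries ran from 0.377 to 0.488 with a median of 0.471. In astrocyte-like nuclei they ran from 0.059 to 0.141 with a median of 0.111, so that all 6 lay below every neuronal library. The subcortical level was 4.26-fold the astrocyte-like one per nucleus (3.84 to 4.72) but 1.73-fold in CPM (1.56 to 1.92). Without high doublet scores excitatory neuron-like nuclei held 32.1 CPM, beside 24.6 in astrocyte-like and 28.4 in microglia-like nuclei. The difference from microglia-like nuclei was then inside its interval. With all libraries summed, the 9 glial, macrophage and vascular classes held 0.053 to 0.058 Cyp46a1 UMIs per Ttr UMI, and the neuron classes 0.155 to 0.253. By clusters these 9 classes spread from 0.0491 to 0.0832, the highest in microglia-like nuclei, and the neuron classes lay at 0.188 to 0.292. Neuroblast-like nuclei had 0.081 by the gate and 0.0597 by clusters. Per nucleus, subcortical excitatory neuron-like nuclei were first by clusters as well (0.534). There excitatory neuron-like nuclei (0.3465) lay above striatal projection neuron-like nuclei (0.339), with inhibitory interneuron-like nuclei close by at 0.335, so the order below the first class was not kept.

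Cyp27a1, the mitochondrial hydroxylase, had the widest span. Border-associated macrophage-like nuclei held 0.364 UMIs per nucleus (0.299 to 0.438) and mature oligodendrocyte-like nuclei 0.302 (0.281 to 0.323), with intervals that overlap. Fibroblast-like (0.078), immature oligodendrocyte-like (0.074) and microglia-like nuclei (0.058) came next, and excitatory neuron-like nuclei were lowest at 0.00605, where 40 UMIs were counted in 6617 nuclei. Mature oligodendrocyte-like nuclei alone carried 39.0% of all Cyp27a1 UMIs of the matrix. The microglia-like level was 9.61-fold the excitatory neuron-like one per nucleus (6.74 to 13.97), and the fibroblast-like level 6.20-fold the endothelial-like one (4.33 to 9.004), both in 6 of 6 libraries. By clusters, border-associated macrophage-like nuclei held 0.194 UMIs per nucleus and mature oligodendrocyte-like nuclei 0.358, which turned the order of the first 2 classes.

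Both esterifying enzymes stood high in astrocyte-like nuclei. Soat1, which makes cholesteryl ester in the endoplasmic reticulum, reached 0.510 UMIs per border-associated macrophage-like nucleus (0.433 to 0.596) and 0.467 per astrocyte-like nucleus (0.450 to 0.485), which did not differ beyond the intervals per nucleus. In CPM astrocyte-like nuclei were first, at 112 (108 to 117), above border-associated macrophage-like nuclei at 77.4 (65.8 to 90.6). By clusters this order turned, with 131 CPM in border-associated macrophage-like and 115 in astrocyte-like nuclei. Astrocyte-like libraries ran from 0.433 to 0.505 with a median of 0.453, and excitatory neuron-like libraries from 0.109 to 0.144 with a median of 0.131. No value of one class reached the other, and the ratio was 3.55-fold per nucleus (3.29 to 3.83) and 8.63-fold in CPM (7.99 to 9.32). Astrocyte-like nuclei were also above OPC-like (2.99-fold, 2.74 to 3.27) and microglia-like nuclei (2.52-fold, 2.29 to 2.78) in 6 of 6 libraries. Lcat, the esterifying enzyme of the particle, was sparse, with 2289 UMIs in all. Astrocyte-like nuclei held 0.078 UMIs per nucleus (0.071 to 0.086), with libraries from 0.054 to 0.090 and a median of 0.078, and excitatory neuron-like nuclei 0.021, with libraries from 0.017 to 0.025. The ratio was 3.81-fold per nucleus (3.14 to 4.65), and choroid plexus-like nuclei (0.062, 0.042 to 0.090) were the only class whose interval met the astrocyte-like one. Relative to Ttr, astrocyte-like nuclei held 0.041 Lcat UMIs and the 14 other classes outside the choroid plexus 0.011 to 0.021.

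In each of 3 class comparisons, a gene counted as different when it was at least 2-fold apart in each of the 6 libraries, among genes of at least 10 CPM in either class. Of the 9 members above that level, which Cyp27a1 missed in this comparison, 5 were higher in astrocyte-like than in excitatory neuron-like nuclei in CPM (Apoe, Clu, Abca1, Soat1 and Lcat), beside 17.5% of all 10902 genes. Lcat reached 10 CPM in astrocyte-like nuclei alone (18.8 against 2.03 CPM), so that its entry was set by the class where it was high, and it adds nothing to the count as support. When the rule had to hold on CPM and per nucleus at once, 3 remained (Abca1, Soat1 and Lcat), beside 6.35% of genes. None was lower on either rule, beside 6.16% of genes on CPM and 6.16% on both scales. Abcg1 was lower in 6 of 6 libraries but not by 2-fold in each on CPM. Between microglia-like and excitatory neuron-like nuclei, where Lcat fell under 10 CPM, 4 of 9 members were higher in CPM (Apoe, Abca1, Cyp27a1 and Soat1), beside 13.3% of 10960 genes, and 2 on both scales (Abca1 and Cyp27a1), beside 4.98%. Cyp27a1 reached the level in microglia-like nuclei alone (15.3 against 0.597 CPM) and likewise adds no support. None of the 9 was lower, beside 0.876% on CPM and 0.876% on both scales. Ttr itself met the rule on CPM in both comparisons, though not on both scales. It lay at 457 CPM in astrocyte-like and 479 in microglia-like nuclei, beside 174 in excitatory neuron-like nuclei. A call on CPM alone, such as those of Apoe and Clu, therefore does not tell transcripts of the nuclei from free RNA.

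Across the oligodendrocyte lineage, which the study follows, Cyp27a1 rose. It had 0.013 UMIs per OPC-like nucleus, with libraries from 0.0068 to 0.023 and a median of 0.013. Immature oligodendrocyte-like nuclei had 0.074, from 0.043 to 0.109 with a median of 0.067, and mature oligodendrocyte-like nuclei 0.302, from 0.261 to 0.493 with a median of 0.371. The ranges of the 3 stages did not overlap, and the order held in 6 of 6 libraries. The mature level was 23.2-fold the OPC-like one per nucleus (17.4 to 31.5) and 17.6-fold in CPM (13.2 to 23.9). Only 50 UMIs were counted in the OPC-like class, 4 to 13 in a library. Of the 9 members above 10 CPM (all but Lcat), Cyp27a1 alone was at least 2-fold above its OPC-like level in the mature class of each library, beside 4.79% of 10556 genes on CPM and 4.79% on both scales. It reached 10 CPM in the mature class alone (48.6 against 2.76 CPM), so nothing is read from this count.

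Lrp1 went the other way, with 0.761 UMIs per OPC-like nucleus (libraries 0.551 to 0.870, median 0.800), 0.490 in the immature class (0.336 to 0.605, median 0.490) and 0.321 in the mature class (0.194 to 0.543, median 0.328). It fell from stage to stage in 6 of 6 libraries in CPM and in 5 of 6 per nucleus, where library 4 had 0.530 in the immature and 0.543 in the mature class. The OPC-like level was 2.37-fold the mature one per nucleus (2.20 to 2.56) and 3.12-fold in CPM (2.89 to 3.37). Without the nuclei of highest doublet score the mature level was 0.625 times as high. Lrp1 was the 1 member at least 2-fold lower in each library on CPM, beside 3.36% of genes, and no member was so on both scales, beside 1.64%. Abca1 was similar in OPC-like and immature nuclei (0.295 and 0.305 UMIs per nucleus) and lower in mature ones (0.185, 0.169 to 0.202), in 5 of 6 libraries against the OPC-like class per nucleus and in 6 of 6 in CPM. Abcg1 was lowest in the middle stage, with 0.183, 0.108 and 0.224 UMIs per nucleus, and the dip below the OPC-like class was seen in 6 of 6 libraries and that below the mature class in 5 of 6, all but library 3. Summed over libraries, Apoe, Clu and Cyp46a1 had 1.48 to 1.52, 0.252 to 0.261 and 0.056 to 0.058 UMIs per Ttr UMI in the 3 stages, and Apoe ran from 1.00 to 2.47 over single libraries. In library 3 mature oligodendrocyte-like nuclei had 8.13 Apoe UMIs per nucleus and 4.26 Ttr UMIs, both the highest of the 6 libraries, in 144 nuclei.

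**Figure D4:**
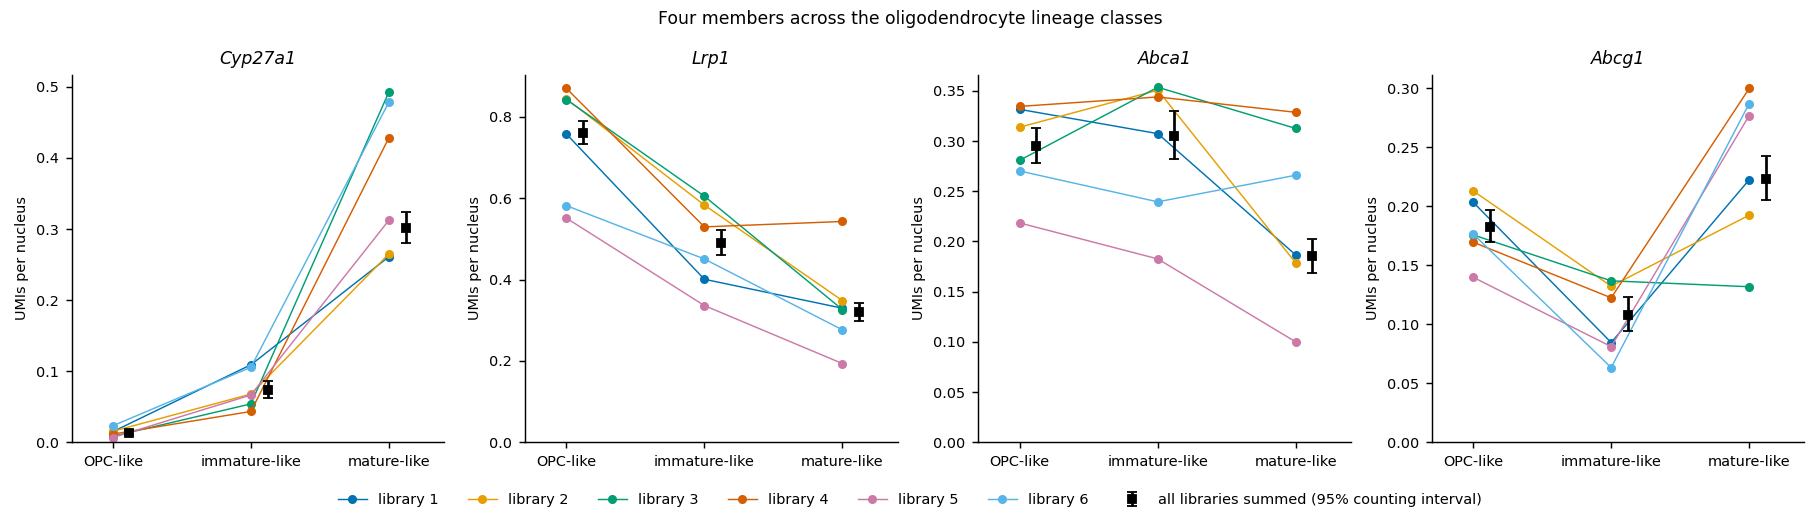
UMIs per nucleus of Cyp27a1, Lrp1, Abca1 and Abcg1 are plotted for OPC-like, immature and mature oligodendrocyte-like nuclei, with a line for each of the 6 libraries and black squares with 95% counting intervals for their sum. Cyp27a1 climbs in each library to 0.261 or more, Lrp1 declines from 0.761 to 0.321 in the sum, and Abcg1 dips to 0.108 in the middle stage.

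The surrounding pathway was read from 28 further genes in 6 lists. Per nucleus, 16 of these had a highest class whose interval lay above that of the next class. In all gated nuclei 7 had fewer than 1000 UMIs, among them Ch25h (60), Soat2 (79) and Apoc1 (270). The highest classes named below are those per nucleus, a scale that favours classes with many UMIs per nucleus, such as the excitatory neuron-like class. Classes were not ranked in CPM for these genes, and the order can differ there. Of the particle proteins, Apod, a lipocalin carried on lipoproteins, was highest in fibroblast-like nuclei (2.95 UMIs per nucleus, 2.86 to 3.04), Pltp, which transfers phospholipid between particles, in endothelial-like nuclei (1.88, 1.83 to 1.92), and Lpl, a lipase of triglyceride-rich particles, in striatal projection neuron-like nuclei (0.214, 0.201 to 0.227). The receptors were spread over different cells. Vldlr (0.554) was highest in mature oligodendrocyte-like nuclei, Lrp8 (1.71) and Scarb1 (0.428) in endothelial-like nuclei, Sorl1 (1.99) in excitatory neuron-like nuclei, and Mylip, a ubiquitin ligase that removes lipoprotein receptors, in microglia-like nuclei (0.493). Among other transporters, Abca2 was highest in mature oligodendrocyte-like nuclei (0.692) and Abca7 in subcortical excitatory neuron-like nuclei (0.261). Gramd1b (2.53) and Osbpl1a (2.16), which move sterol between membranes, were highest in excitatory neuron-like nuclei. For Osbpl1a this holds per nucleus only. Mature oligodendrocyte-like nuclei, the next class, held fewer UMIs per nucleus in all and came above excitatory neuron-like nuclei in CPM. Cyp7b1, which hydroxylates oxysterols further, was highest in astrocyte-like nuclei (0.872, 0.849 to 0.897). The LXR genes were low, with a highest level of 0.113 for Nr1h2 in ependymal-like nuclei and 0.079 for Nr1h3 in pericyte and smooth muscle-like nuclei, neither apart from the next class.

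By the 2-fold rule in each library, 5 of 20 tested pathway genes were higher in astrocyte-like than in excitatory neuron-like nuclei in CPM (Apod, Pltp, Npc2, Cyp7b1 and Rxra) and 0 on both scales, and 0 were lower. Against the same neurons, 6 of 21 were higher in microglia-like nuclei in CPM (Apod, Pltp, Mylip, Npc2, Stard3 and Rxra) and again 0 on both scales. Rxra reached 10 CPM in astrocyte-like (10.4) and microglia-like nuclei (12.3) but not in excitatory neuron-like ones (1.90), so that its entry was set by the class where it was high, and it adds nothing to either count as support. From OPC-like to mature oligodendrocyte-like nuclei, 3 of 19 were higher on both scales (Apod, Abca2 and Lipa), and Cyp7b1 was lower in CPM alone. The shares of all genes that met these rules are those given above for each comparison. Ttr also met the rule on CPM, though not on both scales, in the astrocyte-like and microglia-like comparisons.

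**Figure D5:**
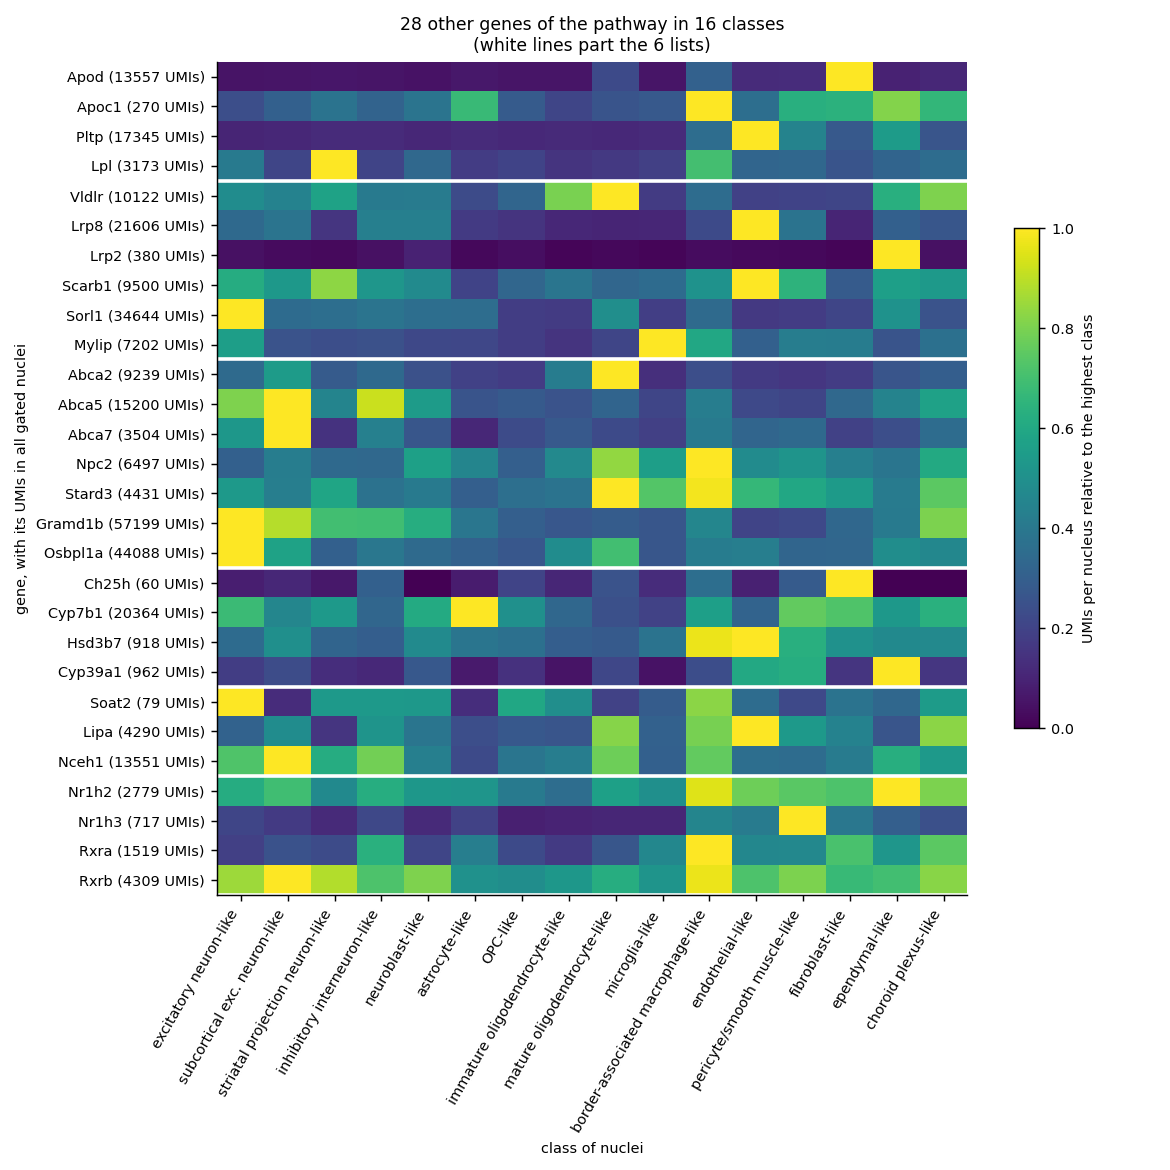
Colour gives UMIs per nucleus of 28 pathway genes (rows, with their UMIs in gated nuclei) in 16 classes (columns), relative to the highest class of each gene. White lines part the 6 lists. Bright cells are scattered over the classes, with Vldlr and Abca2 in mature oligodendrocyte-like and Pltp, Lrp8 and Scarb1 in endothelial-like nuclei.

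The genes most like each member were sought among 14829 genes of at least 1000 UMIs, by Pearson correlation of log2(CPM + 1) over the 16 classes, a description in which all points share their class totals and free RNA. Apoe was most like Zfyve21 (0.97), Glul (0.97), the glutamine synthetase of astrocytes, and Hsbp1 (0.96). Clu was most like Srebf1 (0.98), a regulator of lipid synthesis, and the metallothionein genes Mt1 (0.98) and Mt2 (0.98). Abca1 was most like Trim8 (0.98), Mkln1 (0.97) and Tor1aip1 (0.97). Soat1 was closest to Stat5a (0.96), Adhfe1 (0.96) and Rgl3 (0.95), and Lcat to Son (0.96), Hes5 (0.95) and Nrf1 (0.95). For Cyp27a1 the closest were Pla2g4a (0.96), Tmem63a (0.91) and Gm43848 (0.90), and for Cyp46a1 4930414F18Rik (0.94), Gm32828 (0.89) and Gm1043 (0.89). Abcg4 was closest to Zfp941 (0.94), Iglon5 (0.90) and Rhbdl1 (0.88), and Lrp1 to Nnt (0.86), Chd9 (0.84) and Cdk8 (0.83). Abcg1 had no close companion, the nearest being A430090L17Rik (0.73), Gm49595 (0.73) and A530041M06Rik (0.72).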

How the data were processed

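Nuclei of 6 forebrains (3 WT, 3 Npc1-/-) were sequenced with 10x Genomics 3′ chemistry. The deposited values are UMI counts per gene and nucleus, not normalized. The study's methods name alignment to GRCm38, removal of empty droplets and doublets and a mitochondrial filter, the labels name Cell Ranger 2.1.1 and mm10, and the matrix header names Cell Ranger 6.0.0. The matrix held 75878 barcodes from 6 libraries with no column of single samples, and 631 of 75245 barcode sequences occurred in more than 1 library.

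Barcodes with 10% or more mitochondrial UMIs (11) were left out. A nucleus took the class with the highest mean z score (limited to 10) over its markers if that score was at least 0.5, led the next class by at least 0.25 and rested on at least 3 detected markers. Nuclei under these limits (33242) were used only in whole-library values. No doublet caller was run for the main values. UMIs were summed by class and library and scaled to CPM or divided by nuclei. Intervals are exact binomial (ratios) and exact Poisson (levels) ones at 95%, and called ratios are those whose interval leaves out 0 on the log2 scale. The genotype test planned with edgeR was not run, since no source used here ties a library to its mouse.

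The named genes are the 10 members, the 3 genes most correlated with each, and 28 pathway genes in 6 lists (1 more listed gene is not reported here). Members and lists were chosen with earlier results of these data known. Alternatives were Leiden clusters (scanpy 1.11.5, made without the members, 38 clusters, 24 named), a stricter gate (0.5), removal of the 10% of nuclei of highest doublet score per library, a minimum of 2000 UMIs, TMM factors (edgeR 4.0.16), UMIs per nucleus, leaving out each library, a minimum of 1 CPM and thinning to 2000 UMIs. Scaling per Ttr UMI, the rule on both scales and levels without high doublet scores were added after the data were seen. The ratio and count steps were tested on simulated data. Python 3.11.15 was used.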

Additional observations from a re-analysis of the deposited data

How the results depend on the processing

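No paired analysis was possible because no library is tied to a replicate number of the labels, which leaves WT and Npc1-/- mice unpaired. The ratios, their intervals and the calls came from UMIs summed over libraries. Only the number of libraries that show each direction and the 2-fold rule in each library compared classes within libraries. Classes drew unequally on the libraries, with 94 to 924 mature oligodendrocyte-like nuclei in a library, and the part of this in the summed ratios was not tested. Over 30 log2 ratios in CPM (10 genes in 3 class comparisons) and 390 alternative values, 349 kept a call in its direction or stayed without one, 18 turned direction where either setting had a call, 15 lost the call and 8 gained one. Among values without a call in both settings, Abcg4 in microglia-like over excitatory neuron-like nuclei turned sign under Leiden clusters (0.0231), and Abcg1 (0.0039) and Cyp46a1 (0.0029) in the oligodendrocyte comparison under TMM, as did Abcg1 without library 2 (0.0436). Leiden clusters and the minimum of 2000 UMIs changed no call. The stricter gate left Cyp46a1 in microglia-like over excitatory neuron-like nuclei at -0.1071, inside its interval, as did removal of high doublet scores (-0.1804), and that removal turned the mature oligodendrocyte-like over OPC-like ratio of Apoe (0.0961) and Clu (0.0279).

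Under TMM, Abcg4 became lower in astrocyte-like (-0.5045) and microglia-like (-0.6931) than in excitatory neuron-like nuclei, and in the oligodendrocyte comparison Apoe turned (0.0294) while Clu (-0.0134) and Abcg4 (-0.2718) lost their calls. Per nucleus, Lrp1 (-0.1439) turned and Abcg4 (-1.3814) gained a call in astrocyte-like over excitatory neuron-like nuclei. In microglia-like over excitatory neuron-like nuclei, Clu (-0.1311), Abcg1 (-0.5561) and Lrp1 (-0.0611) turned, Abcg4 (-1.6254) gained a call and Lcat (0.1716) lost one. In the oligodendrocyte comparison Apoe (0.3150), Clu (0.2722), Abcg1 (0.2895), Abcg4 (0.0139) and Cyp46a1 (0.2885) turned, and Soat1 (-0.1154) and Lcat (-0.3022) lost their calls. Per Ttr UMI, Lrp1 (-0.2537) turned, Abcg4 (-1.4912) gained a call and Cyp27a1 (0.5630) lost one in the astrocyte-like comparison. In the microglia-like one Clu (-0.1736), Abcg1 (-0.5987) and Lrp1 (-0.1036) turned, Abcg4 (-1.6679) gained a call and Lcat (0.1291) lost one, and in the oligodendrocyte comparison Apoe (0.0091) turned while Clu (-0.0337) and Abcg4 (-0.2921) lost their calls. These scalings differ by construction in what depth is divided out.

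Leaving out each library in turn gave -0.2584 to -0.1806 for Cyp46a1 in microglia-like over excitatory neuron-like nuclei (call lost without library 6). In the oligodendrocyte comparison it gave -0.1711 to 0.0097 for Apoe (lost without library 2, turned without library 5), -0.1644 to -0.0033 for Clu (lost without library 5), -0.2118 to 0.0436 for Abcg1 (gained without library 4 or 5) and -0.5408 to -0.2426 for Abcg4 (lost without library 5). Of 160 levels per nucleus, 72 moved under Leiden clusters, 17 of them by over 1.5-fold (0.427 to 1.58 times), and 70 without high doublet scores, 6 of them by over 1.5-fold (0.342 to 1.07 times). Thinning to 2000 UMIs was read on the share of nuclei with a UMI, which it lowers by construction. Of 160 such shares 142 fell by over 1.5-fold, and unequally by class. The Lrp1 share fell to 0.306 times in excitatory neuron-like and 0.742 times in microglia-like nuclei. Depth limits Lcat, Abcg4 and Cyp27a1, which had 2289, 6935 and 2021 UMIs in all.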

Other observations

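The libraries differed within some classes by more than in others. These values are given singly, since no source used here ties a library to a mouse, and no library is placed in a group by them. Microglia-like nuclei held 0.512, 0.592, 0.955, 0.993, 0.464 and 0.906 Abca1 UMIs per nucleus in libraries 1 to 6, and 139, 140, 241, 212, 175 and 314 CPM. Library 5 was thus lowest per nucleus and library 6 highest in CPM. Mature oligodendrocyte-like nuclei numbered 831, 924, 144, 140, 480 and 94 in the same order. Their Cyp27a1 levels were 0.261, 0.265, 0.493, 0.429, 0.312 and 0.479 UMIs per nucleus, or 43.0, 42.6, 74.4, 59.2, 54.2 and 66.3 CPM. The CPM values divide by the depth of each library and class, and the values per nucleus do not.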
